A study of Mus musculus with 6 samples.

Results

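The regulatory T cell genes described here are 10 genes whose rows were taken by symbol from the gene count table of brown adipose tissue (BAT): Foxp3, Ikzf2, Il2ra, Ctla4, Icos, Tnfrsf4, Tnfrsf18, Klrg1, Areg and Il10. All 10 were found among the 35976 rows, and 9 of them were among the 14542 genes with enough counts to be tested. RNA-seq was performed on BAT from 3 WT mice and 3 sST2-KO mice (labelled ST2-KO in the sample titles), 1 library per mouse. The mice were 10-week-old males on a C57BL/6J background, and WT littermates from heterozygous crosses served as controls. In sST2-KO mice, CRISPR/Cas9 removed the intron of Il1rl1 that lies between exon 8 and exon 9, which takes away the end of the soluble form sST2 and keeps the membrane receptor ST2L. The deletion is in the germ line, so it is present in every cell of the mouse. All 6 mice, controls included, had their BAT denervated by surgery and were then kept at 10 °C for 8 h. No sham-operated mouse and no mouse kept warm was compared here.

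Regulatory T cells are CD4+ T cells that restrain other immune cells and are defined by the transcription factor Foxp3. They carry the high-affinity receptor for interleukin 2 (IL-2), which signals through STAT5, and they compete for the ligands of CD28 through CTLA-4. In adipose tissue, many of them carry ST2L and respond to IL-33, and they are a source of IL-10 and amphiregulin. None of the other 9 genes is restricted to these cells, since activated T cells, natural killer cells, group 2 innate lymphoid cells or macrophages can express them.

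Reference promoter windows from RefSeq on the build GRCm38.p6, each with 250 bases before the annotated start, were found for 6 of the 10 members. Icos, Ikzf2, Klrg1 and Il10 are named only. Windows that also held the first 50 bases after the start were searched on both strands for 3 motifs: TTCNNNGAA, the type bound by STAT5, TGACGTCA, the cAMP response element, and TGANTCA, the AP-1 type. Of all 32851 windows in the table, 8.3% held the first, 1.79% the second and 7.81% the third. Shown are Ctla4, the member that rose most, and Il2ra, the receptor chain for IL-2. Also shown are Tnfrsf18 and Foxp3, the only ones of the 6 members with a window that had a match to TTCNNNGAA. All are on the plus strand, with the match in capitals. The windows are chr1:60908775-60909024 for Ctla4, chr2:11642542-11642791 for Il2ra, chr4:156026072-156026321 for Tnfrsf18 and chrX:7580233-7580482 for Foxp3, the second of its 2 starts.
Ctla4: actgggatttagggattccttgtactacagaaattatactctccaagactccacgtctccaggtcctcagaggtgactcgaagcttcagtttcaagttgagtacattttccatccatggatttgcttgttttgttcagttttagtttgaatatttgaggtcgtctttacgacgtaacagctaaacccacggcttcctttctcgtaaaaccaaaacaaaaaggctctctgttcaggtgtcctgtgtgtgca
Il2ra: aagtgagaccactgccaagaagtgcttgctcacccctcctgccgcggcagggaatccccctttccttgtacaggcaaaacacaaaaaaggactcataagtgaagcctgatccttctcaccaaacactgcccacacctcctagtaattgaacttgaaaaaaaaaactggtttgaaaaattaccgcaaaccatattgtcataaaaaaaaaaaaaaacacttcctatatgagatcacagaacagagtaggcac
Tnfrsf18: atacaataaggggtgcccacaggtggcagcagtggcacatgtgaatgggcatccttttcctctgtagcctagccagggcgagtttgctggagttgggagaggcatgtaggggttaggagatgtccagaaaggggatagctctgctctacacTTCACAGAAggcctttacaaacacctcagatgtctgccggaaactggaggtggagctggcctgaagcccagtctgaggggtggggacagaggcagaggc
Foxp3: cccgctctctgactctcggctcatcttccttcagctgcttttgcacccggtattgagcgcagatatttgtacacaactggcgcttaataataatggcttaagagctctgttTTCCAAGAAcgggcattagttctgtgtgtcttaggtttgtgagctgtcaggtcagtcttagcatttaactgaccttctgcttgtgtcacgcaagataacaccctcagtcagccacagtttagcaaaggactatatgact
Ctla4, Il2ra, Tnfrsf4 and the first Foxp3 start had no match to any of the 3 motifs. Areg had 1 match to TGACGTCA, and none of the 6 members with a window had a match to TGANTCA. A match describes these letters and was not measured as a bound site, and no match says only that the letters are not in the window.

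Of the 9 members tested, 6 rose in sST2-KO BAT, none fell and 3 did not pass the test. Ctla4 and Icos rose most, followed by Il2ra, Klrg1, Il10 and Tnfrsf18. Tnfrsf4, Ikzf2 and Foxp3 did not pass, and Areg was too low to be tested. To be called, a gene needed more than a 2-fold change and, in the quasi-likelihood test of edgeR, an adjusted p under 0.05 after Benjamini-Hochberg adjustment over all genes tested. Of all genes tested, 9.04% were called higher and 7.10% lower. In 7 of the 9 members every sST2-KO library lay above every WT library, which held for 21.8% of all genes tested. The median log2 fold change was 2.37 over the 9 members tested and 0.03 over all genes tested. The member count was 2 of 9 without WT replicate 3, where 0.239% of all genes tested were called higher (36 of 15085). It was 3 of 9 without WT replicate 2, with 2.63% of all genes (391 of 14846), and 4 of 9 without sST2-KO replicate 3, with 4.59% (683 of 14882). Without any other single library it was 5, with 6.96% to 9.38% of all genes called higher. At an unadjusted p under 0.05, 7 members were higher and 0 lower in edgeR with all libraries. Of all 14542 genes tested, 5269 reached this p in either direction. With the same limits on adjusted p and fold, DESeq2 called 7 members higher, and 11.0% of all genes. With a minimum of 10 counts in every library only 3 members could be tested. Of these, 1 was called higher, with 8.05% of all genes.

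**Figure D1:**
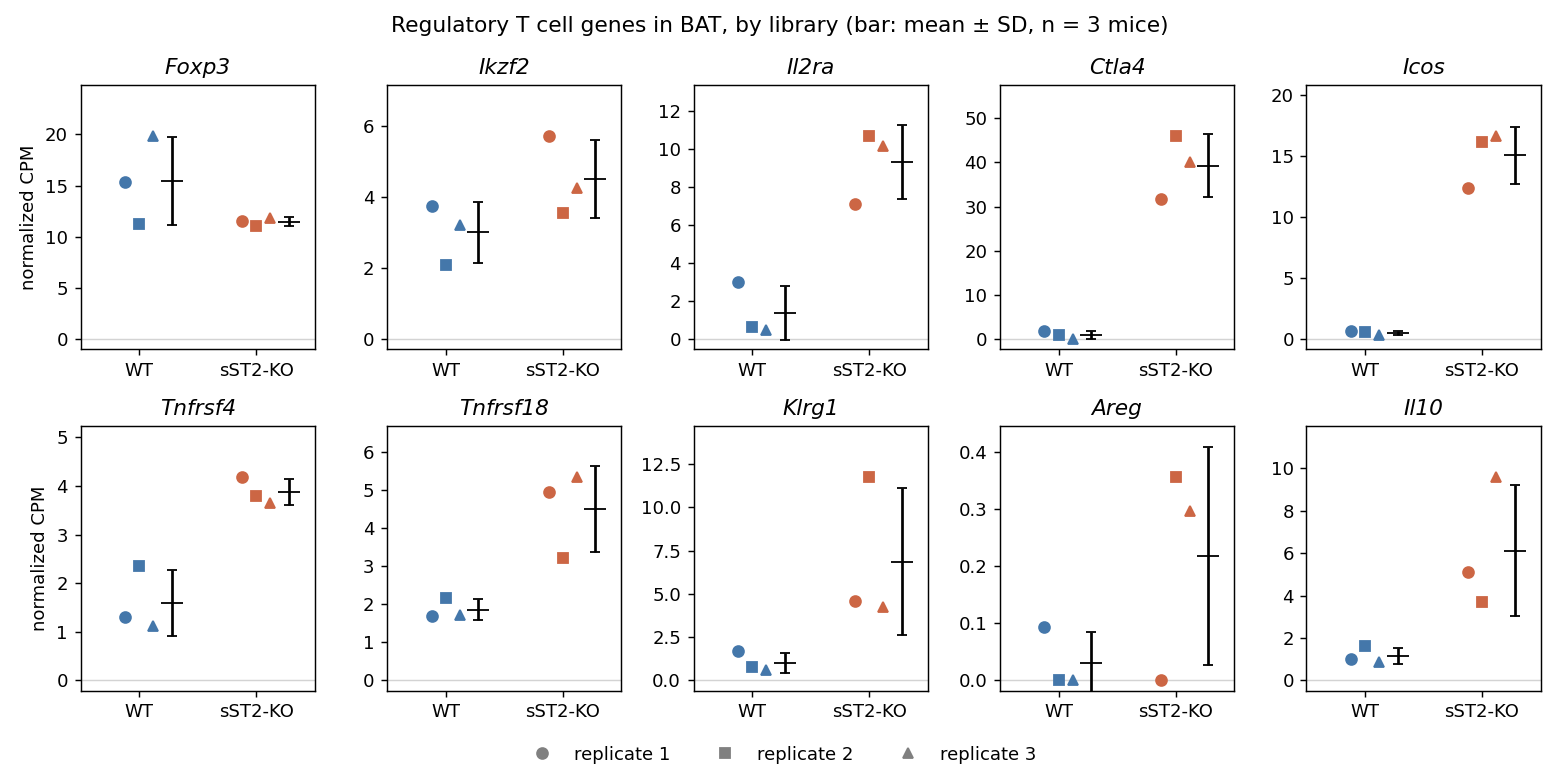
Normalized CPM (read counts scaled to library size) of the 10 members in each library, on linear axes that differ between genes, with mean ± SD (n = 3 mice per group). The groups are far apart for Ctla4 and Icos, touch or overlap for Foxp3, Ikzf2 and Areg, and are separated for the other members.

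The libraries held 8159442 to 12874809 counts, so that 1 normalized CPM, scaled by edgeR's TMM factors, stood for 8.11 to 14.3 counts. Values are given in the order of replicates 1, 2 and 3 throughout. For Il1rl1, the targeted gene, the WT libraries held 19, 19 and 6 counts and the sST2-KO libraries 55, 69 and 142. This is a rise in gene counts (log2 fold change 2.56 ± 0.57 SE, adjusted p = 0.0239 in edgeR), and since the reads of sST2 and ST2L are added up per gene, it does not check the genotype. This call was lost without any WT library or sST2-KO replicate 3, with adjusted p values of 0.0515 to 0.0936 in edgeR. Some libraries stood apart in genes of other tissues: 6 liver genes summed to 4556 CPM in WT replicate 2 and at most 46.2 CPM elsewhere, and 11 macrophage genes summed to 6318 CPM in sST2-KO replicate 3 and at most 1575 CPM elsewhere. Skeletal muscle genes summed to 6.16 to 1176 CPM in WT and 3384 to 14320 CPM in sST2-KO libraries. Brown adipocyte genes marked the tissue, with sums of 19420 to 29450 CPM in WT and 4247 to 8697 CPM in sST2-KO libraries. Without both WT replicate 2 and sST2-KO replicate 3, a choice made after the data were seen, 3 members were called, with 3.03% of all genes called higher.

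Among the transcription factors, Foxp3 had 164, 119 and 161 counts in WT and 166, 93 and 120 counts in sST2-KO libraries. As normalized CPM these were 15.3, 11.2 and 19.9 in WT and 11.6, 11.0 and 11.9 in sST2-KO BAT. The groups overlapped, and WT replicate 3 was the highest library. The log2 fold change of Foxp3 was -0.43 ± 0.26 SE (95% interval -1.03 to 0.18, adjusted p = 0.276 by edgeR's quasi-likelihood test). The interval leaves out any rise above 0.18 on the log2 scale under this scaling. Ikzf2, which encodes Helios, a partner of Foxp3 in many regulatory T cells, had 40, 22 and 26 counts in WT and 82, 30 and 43 counts in sST2-KO libraries. Its normalized CPM of 3.73, 2.07 and 3.21 in WT and 5.72, 3.56 and 4.25 in sST2-KO libraries overlapped, because sST2-KO replicate 2 lay below WT replicate 1. Its log2 fold change was 0.59 ± 0.35 SE with a 95% interval from -0.23 to 1.42 (adjusted p = 0.269, edgeR).

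Foxp3 (ENSMUSG00000039521) is a plus-strand gene of chromosome X (GRCm39, 7439883 to 7461484) with 4577 bp of exons in the GENCODE annotation. Its exons share 590 bp, 12.9% of their length, with exons of Ccdc22 on the opposite strand, 266 bp with exons of Ppp1r3f, also opposite, and 373 bp with those of the antisense RNA Gm36995. They also share 853 bp, 18.6% of the length, with Flicr, a noncoding RNA on the same strand. The counting mode and its use of strand are not given in the sources used here, so reads of these genes cannot be told apart from reads of Foxp3 in these bases. Ccdc22, which encodes a subunit of the endosomal CCC complex and is expressed in most cell types, had 279, 230 and 270 counts in WT and 322, 153 and 221 counts in sST2-KO libraries. The count of Foxp3 was 0.588, 0.517 and 0.596 of that of Ccdc22 in WT and 0.516, 0.608 and 0.543 of it in sST2-KO libraries. The highest of these ratios was 1.18 times the lowest, whereas the counts of Foxp3 themselves spanned 1.78 times. Ccdc22 did not pass the test either (log2 fold change -0.37 ± 0.22 SE, adjusted p = 0.260, edgeR). Flicr, listed under its older name Ppp1r3fos, had 1 to 7 counts in any library. The ratio to Ccdc22 was chosen after the values were seen.

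By likeness over the 6 libraries, measured as the root-mean-square difference in centred log2 CPM, Ccdc22 ranked 5 among 14533 tested genes outside the members, with a difference of 0.10. The 4 genes nearer to Foxp3 were Atp6v1d, Hs3st1, B3glct and Saysd1, with differences of 0.08 to 0.09. None of these 5 genes was called, and their log2 fold changes lay between -0.28 and -0.39. The other members were farther from Foxp3, from 0.54 for Ikzf2 to 3.27 for Ctla4. Ppp1r3f, on the other side of Foxp3, ranked 8745.

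In the WT libraries the Foxp3 row also held more reads than genes carried by all T cells. The counts of Cd3d, Cd3e and Cd3g, subunits of the T cell receptor complex, summed to 40, 55 and 41 in WT and to 520, 310 and 545 in sST2-KO libraries. Foxp3 was counted 4.10, 2.16 and 3.93 times as often as these 3 genes together in WT and 0.319, 0.300 and 0.220 times as often in sST2-KO libraries. Against Cd4, the coreceptor of the cells that hold Foxp3, it was counted 8.20 to 14.9 times as often in WT and 2.86 to 3.75 times as often in sST2-KO libraries. These are ratios of counts and not of levels per length. What part of the Foxp3 row came from regulatory T cells was not tested.

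**Figure D2:**
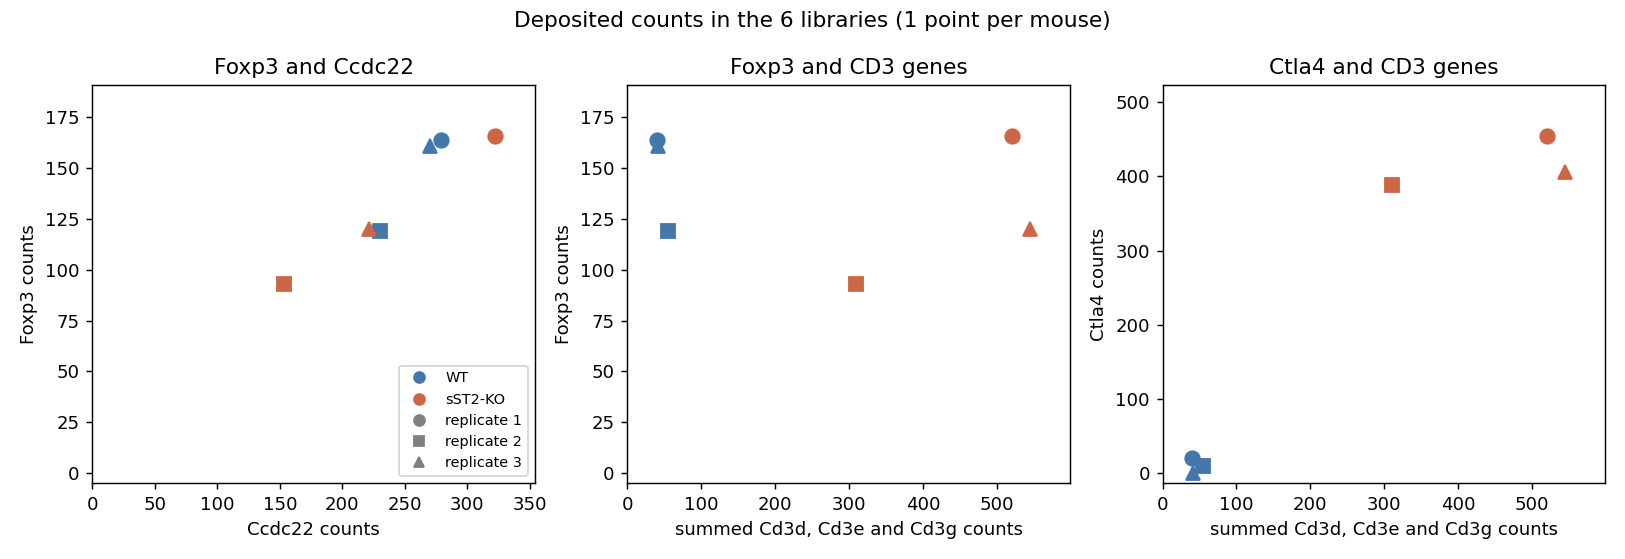
Deposited counts of Foxp3 against Ccdc22 (left), of Foxp3 against the summed CD3 genes (middle) and of Ctla4 against the same CD3 genes (right), 1 point per mouse, linear axes. The Foxp3 counts stay near a constant share of the Ccdc22 counts in all 6 libraries, while Ctla4 is at 0 to 20 counts in WT and 388 to 455 counts in sST2-KO libraries.

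Among the surface receptors, the pair on chromosome 1 rose most. Ctla4 encodes the inhibitory receptor that binds CD80 and CD86. It had 20, 9 and 0 counts in WT and 455, 388 and 406 counts in sST2-KO libraries, or 1.87, 0.848 and 0 normalized CPM against 31.7, 46.0 and 40.1. Every sST2-KO library lay far above the highest WT library. The log2 fold change of Ctla4 was 5.35 ± 0.71 SE (95% interval 3.70 to 7.01, adjusted p = 0.0122, edgeR). In WT replicate 3, where no read was counted, 3 counts would have been 0.370 CPM.

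Icos encodes a costimulatory receptor of activated and regulatory T cells. It had 7, 6 and 3 counts in WT and 178, 136 and 169 counts in sST2-KO libraries, or 0.653, 0.565 and 0.370 normalized CPM against 12.4, 16.1 and 16.7. The values were close together within each group and far apart between the groups. Its log2 fold change was 4.78 ± 0.34 SE (95% interval 3.99 to 5.56, adjusted p = 0.00563, edgeR). Ctla4 and Icos were called with each of the 6 libraries left out in turn, with log2 fold changes of 4.84 to 6.36 and 4.60 to 4.94.

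The genes Ctla4 (GRCm39, chromosome 1, 60926159 to 60954991) and Icos (61017086 to 61039479) stand next to each other on the plus strand, 62094 bp apart. Cd28, the costimulatory receptor for the same ligands as CTLA-4, ends 113640 bp before Ctla4, and Pard3b, a cell polarity gene, starts 638503 bp after Icos. Cd28 had 13, 8 and 3 counts in WT and 98, 65 and 116 counts in sST2-KO libraries (log2 fold change 3.42 ± 0.46 SE, adjusted p = 0.0122, edgeR). Pard3b had a log2 fold change of -0.48 and was not called. Ctla4 was counted 1.54, 1.12 and 0 times as often as Cd28 in WT and 4.64, 5.97 and 3.50 times as often in sST2-KO libraries. The ratio of the inhibitory to the costimulatory gene was thus higher in every sST2-KO library. The WT ratios rest on few reads, 20, 9 and 0 counts of Ctla4 over 13, 8 and 3 counts of Cd28.

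Il2ra encodes CD25, the chain that gives the IL-2 receptor its high affinity. It had 32, 7 and 4 counts in WT and 102, 90 and 103 counts in sST2-KO libraries, or 2.99, 0.660 and 0.493 normalized CPM against 7.11, 10.7 and 10.2. WT replicate 1 was several times above the other WT libraries but below every sST2-KO library. The log2 fold change was 2.71 ± 0.63 SE (95% interval 1.24 to 4.19, adjusted p = 0.0277, edgeR). It was 3.96 without WT replicate 1. The call was lost without WT replicate 2 (adjusted p = 0.0794, edgeR), WT replicate 3 (0.0941), sST2-KO replicate 2 (0.0610) or sST2-KO replicate 3 (0.0577).

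Klrg1 encodes an inhibitory receptor for cadherins on differentiated T cells, natural killer cells and tissue regulatory T cells. It had 18, 8 and 5 counts in WT and 66, 99 and 43 counts in sST2-KO libraries, or 1.68, 0.754 and 0.616 normalized CPM against 4.60, 11.8 and 4.25. sST2-KO replicate 2 was the highest, and the groups did not overlap. The log2 fold change was 2.71 ± 0.58 SE (adjusted p = 0.0220, edgeR), and it was 2.07 without sST2-KO replicate 2 (adjusted p = 0.0455, still called). The call was lost without WT replicate 2 (adjusted p = 0.0743, edgeR) or WT replicate 3 (0.0941).

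The costimulatory receptors of the tumor necrosis factor family, OX40 (Tnfrsf4) and GITR (Tnfrsf18), had lower log2 fold changes. Tnfrsf4 had 14, 25 and 9 counts in WT and 60, 32 and 37 counts in sST2-KO libraries, or 1.31, 2.36 and 1.11 normalized CPM against 4.18, 3.80 and 3.65. The groups did not overlap, but the log2 fold change of 1.27 ± 0.38 SE did not pass the test (95% interval 0.39 to 2.15, adjusted p = 0.0522, edgeR). Tnfrsf4 passed with total counts as the scale (adjusted p = 0.0352, edgeR) and with DESeq2 (adjusted p = 0.0316). Tnfrsf18 had 18, 23 and 14 counts in WT and 71, 27 and 54 counts in sST2-KO libraries, or 1.68, 2.17 and 1.73 normalized CPM against 4.95, 3.20 and 5.33. The lowest sST2-KO library, replicate 2, was still above the highest WT library. Its log2 fold change of 1.27 ± 0.34 SE was almost the same as that of Tnfrsf4 and passed (adjusted p = 0.0391, edgeR). The call held only without sST2-KO replicate 2 (adjusted p = 0.0461, edgeR), and without any other single library the adjusted p was between 0.0802 and 0.142. It was also lost with no filter on low counts (adjusted p = 0.0656, edgeR).

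Tnfrsf4 (GRCm39, chromosome 4, 156098293 to 156101069) and Tnfrsf18 (156110621 to 156113352) are neighbors on the plus strand, 9551 bp apart. On one side Sdf4, which encodes a calcium-binding protein of the Golgi, ends 225 bp before Tnfrsf4 and had a log2 fold change of -0.33 without being called, and Ttll10 on the other side had at most 1 count in any library. The exons of Tnfrsf18 share 547 bp, 35.9% of their length, with Gm16008, a noncoding RNA on the opposite strand. This RNA, listed under its older name Gm10560, had 37, 12 and 11 counts in WT and 107, 19 and 21 counts in sST2-KO libraries, which overlapped between the groups. The share of its reads in the row of Tnfrsf18 was not tested.

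Of the secreted members, Il10 encodes a cytokine that restrains macrophages and other immune cells. It had 11, 17 and 7 counts in WT and 73, 31 and 97 counts in sST2-KO libraries, or 1.03, 1.60 and 0.863 normalized CPM against 5.09, 3.68 and 9.58. All sST2-KO libraries lay above the WT libraries, with replicate 3 the highest. The log2 fold change was 2.37 ± 0.47 SE (95% interval 1.27 to 3.48, adjusted p = 0.0188, edgeR), and the call was lost without WT replicate 3 (adjusted p = 0.0840). Areg encodes amphiregulin, a ligand of the epidermal growth factor receptor used in tissue repair. It had 1, 0 and 0 counts in WT and 0, 3 and 3 counts in sST2-KO libraries. No library held more than 3 counts of Areg, so a difference was not detectable at this depth, and no fold is given.

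**Figure D3:**
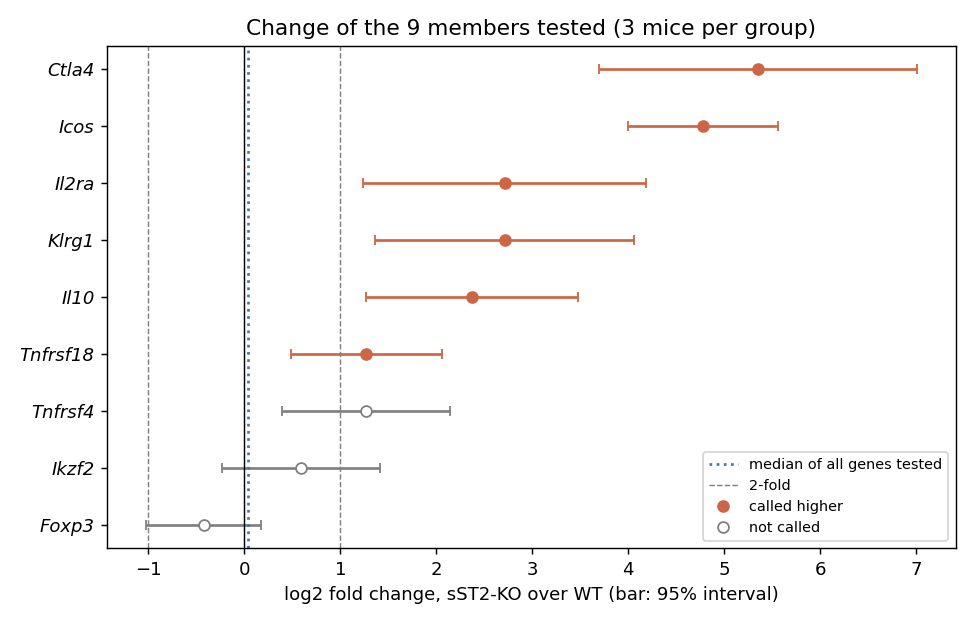
Log2 fold change of sST2-KO over WT for the 9 members tested, with 95% intervals. Filled points mark the members called higher. The dotted line is the median of all genes tested at 0.03, and the intervals of Foxp3 and Ikzf2 include 0.

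The members differed in level per length of exon, given here as mean normalized CPM per kb. In WT BAT the order was Foxp3 (3.38), Tnfrsf18 (1.22), Tnfrsf4 (1.16), Il10 (0.888), Klrg1 (0.493), Ctla4 (0.388), Il2ra (0.242), Ikzf2 (0.230), Icos (0.154) and Areg (0.0255). In sST2-KO BAT it was Ctla4 (16.9), Il10 (4.66), Icos (4.40), Klrg1 (3.33), Tnfrsf18 (2.95), Tnfrsf4 (2.83), Foxp3 (2.51), Il2ra (1.63), Ikzf2 (0.345) and Areg (0.178). Foxp3 was thus first in WT BAT and in the seventh place in sST2-KO BAT, while Ctla4 went from the sixth place to the first. In WT BAT, Foxp3 lay above and Areg below its neighbor in the order in every library, and all other neighbors overlapped. In sST2-KO BAT, Ctla4 lay above Il10 in every library, and Tnfrsf4, Foxp3, Il2ra and Ikzf2 followed each other without overlap, while the other neighbors overlapped. The order rests on exon lengths merged over all transcripts. The place of Foxp3 also rests on a row that may hold reads of genes overlapping its exons. The WT place of Ctla4 rests on 20, 9 and 0 counts.

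T cell genes outside the members also rose. Of 13 tested genes of a T cell list, 12 were called higher, against 9.04% of all genes tested, with a median log2 fold change of 3.13. In all 13, every sST2-KO library lay above every WT library, which held for 21.8% of all genes tested. The list summed to 24.2 to 26.8 CPM in WT and 198 to 244 CPM in sST2-KO libraries, with Cd8a as the largest change (log2 fold change 3.77, adjusted p = 0.00900, edgeR) and Cd4 as the smallest (1.23, adjusted p = 0.0759, not called). Cd8a, the coreceptor of cytotoxic T cells, was counted 0.650, 3 and 1.73 times as often as Cd4 in WT and 7.79, 7.67 and 10.9 times as often in sST2-KO libraries. Of 13 genes of natural killer and cytotoxic T cells, 12 were called higher (median log2 fold change 2.96), and their sum went from between 61.2 and 85.2 CPM to between 741 and 1125 CPM. Ifng, the cytokine gene of these cells, had the largest log2 fold change of this list (6.04) and Tbx21, their transcription factor, the smallest (1.21). The call of Ifng was lost without WT replicate 3 (adjusted p = 0.0650, edgeR). That of Tbx21 was lost without WT replicate 1, 2 or 3 (0.0619, 0.106 and 0.151) or with no filter on low counts (0.0638). Of 4 tested genes of group 2 innate lymphoid cells 2 were called, both also expressed by T cells, while their cytokine genes Il5, Il13 and Il9 had at most 4 counts in any library. Macrophage genes were called higher in 3 of 11, dendritic cell genes in 3 of 6 and B cell genes in 1 of 4. Neutrophil genes were called in 2 of 6 and mast cell genes in 0 of 5, against the same 9.04% of all genes. At an unadjusted p under 0.05 in edgeR there were 6 macrophage, 4 dendritic cell, 1 B cell, 6 neutrophil and 3 mast cell genes. Of these, Cd163 and Zbtb46 were lower and the rest higher. Of all 14542 genes tested, 5269 reached this p in either direction. The 1 testable gene of lymph node stroma, Cxcl13, was not called.

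The largest and smallest log2 fold changes were 3.49 for Bcl11b and -0.62 for Il17rb among the innate lymphoid genes, 2.67 for Itgam and -1.26 for Cd163 among the macrophage genes, and 1.94 for Itgax and -0.97 for Zbtb46 among the dendritic cell genes. They were 1.57 for Cd22 and 0.13 for Fcer2a, which turned to -0.15 without WT replicate 2, among the B cell genes, 2.79 for S100a9 and 2.22 for Retnlg among the neutrophil genes, and 3.36 for Tpsb2 and 0.76 for Kit among the mast cell genes. Of these 12, Bcl11b, Itgam, Itgax and Cd22 were called, and each of these 4 calls was lost without WT replicate 3 (adjusted p from 0.0754 to 0.125, edgeR). The call of Itgam was also lost without WT replicate 2 (0.0568). That of Cd22 was also lost without WT replicate 1 (0.1125) or 2 (0.110), with RLE factors (0.0520) and with no filter (0.067). Tpsb2 was at 0.73 when sST2-KO replicate 3 was left out. In bulk tissue, more cells of a type and more RNA per cell cannot be told apart, and the part of these cells in the values of the members was not tested.

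To set each member against the T cell genes of its own library, its counts were divided by the summed counts of Cd3d, Cd3e and Cd3g, with 0.5 added to both. The groups were compared by an exact two-sided permutation test, in which 3 mice against 3 can give no p below 0.1. On this log2 scale, Ctla4 was 3.20 and Icos 1.56 higher in sST2-KO than in WT libraries. Every sST2-KO library was above every WT library for both genes (exact p = 0.1 each). The CD3 sum itself rose, from 40, 55 and 41 counts in WT to 520, 310 and 545 counts in sST2-KO libraries. A gene with steady counts therefore falls in this ratio, and a lower ratio does not mean fewer reads of the member. The differences of sST2-KO from WT means were -3.55 for Foxp3, -2.57 for Ikzf2, -1.93 for Tnfrsf18, -1.83 for Tnfrsf4 and -0.89 for Il10. For each of these 5 every sST2-KO library was below every WT library (exact p = 0.1 each).

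For Il2ra and Klrg1 the differences were -0.04 (exact p = 1) and -0.50 (exact p = 0.5), and the groups overlapped. Areg had too few counts for its ratio to be read. For Il10, Tnfrsf18 and Tnfrsf4, all 3 sST2-KO libraries lay above the WT libraries in normalized CPM and below them in this log2 ratio. For Il10, WT replicate 3 (-2.47) and sST2-KO replicate 3 (-2.48) were almost tied, and their order depends on the added 0.5. The values per library for Ctla4 were -0.98, -2.55 and -6.38 in WT and -0.19, 0.32 and -0.42 in sST2-KO libraries, so the WT value depends on the 0 counts of replicate 3.

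**Figure D4:**
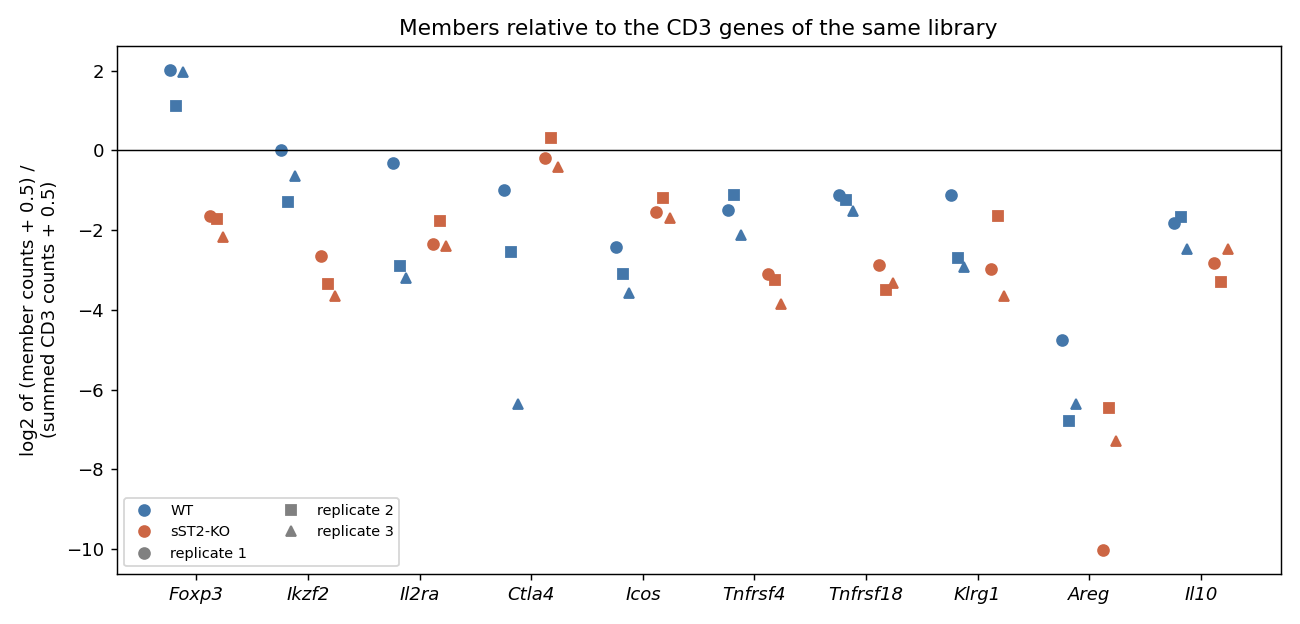
Log2 ratio of the counts of each member to the summed counts of Cd3d, Cd3e and Cd3g in the same library, with 0.5 added to both, 1 point per mouse. Ctla4 and Icos lie higher in all 3 sST2-KO libraries, Foxp3, Ikzf2, Tnfrsf4, Tnfrsf18 and Il10 lie lower, and Il2ra, Klrg1 and Areg overlap. For Il10, replicate 3 of WT and replicate 3 of sST2-KO are almost tied.

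Ligands and receptors that meet the members were followed in a list of 14 genes. Of these, 10 were tested and 3 were called higher, against 9.04% of all genes tested. Cd80, a ligand of CTLA-4 and CD28, had 18, 12 and 13 counts in WT and 49, 78 and 237 counts in sST2-KO libraries (log2 fold change 3.02 ± 0.70 SE, adjusted p = 0.0267, edgeR). Il10ra and Il10rb, the chains of the IL-10 receptor, rose with log2 fold changes of 1.61 ± 0.41 SE (adjusted p = 0.0337, edgeR) and 1.04 ± 0.23 SE (adjusted p = 0.0248, edgeR). Without WT replicate 3 the adjusted p was 0.101 for Cd80, 0.130 for Il10ra and 0.101 for Il10rb. Leaving out sST2-KO replicate 3 gave log2 fold changes of 2.09 for Cd80, which was still called, and 0.97 for Il10ra, which was then under 2-fold. In edgeR, 0 genes of the list were called higher without WT replicate 2 or WT replicate 3, where 2.63% and 0.239% of all genes were. Of the 11 list genes tested in each, 6 and 3 were higher at an unadjusted p under 0.05. Over all genes, 4407 of 14846 and 3797 of 15085 reached this p in either direction. The count of list genes called higher was 1 without WT replicate 1 or sST2-KO replicate 3, where 7.47% and 4.59% of all genes were called higher.

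The other CTLA-4 ligand, Cd86, had a log2 fold change of 0.69 and was not called. Icosl, the ligand of ICOS, had 77, 100 and 65 counts in WT and 1047, 103 and 151 counts in sST2-KO libraries. Its log2 fold change of 2.03 did not pass (adjusted p = 0.0714, edgeR) and was 0.72 without sST2-KO replicate 1, which held most of its reads. Icosl did pass with DESeq2 (adjusted p = 0.00807), with total counts as the scale (0.0490, edgeR), with no filter (0.0473) and without sST2-KO replicate 2 (0.0450). Il33, the ligand of ST2L, had a log2 fold change of 1.34 ± 0.62 SE and was not called (adjusted p = 0.166, edgeR). Without sST2-KO replicate 1 it was called (1.79, adjusted p = 0.0331, edgeR), and without sST2-KO replicate 3 its log2 fold change was 0.46 (adjusted p = 0.578). Adam17, the sheddase that frees amphiregulin, its receptor gene Egfr, and Stat3, which carries the IL-10 signal, had log2 fold changes of 0.30, 0.38 and 0.48. Cdh2, a cadherin ligand of KLRG1, was at -0.68, and none of these 4 was called. Tnfsf4, Tnfsf18, Cdh1 and Il2, the genes for OX40 ligand, GITR ligand, E-cadherin and IL-2, were not tested, with at most 2 counts of Il2 and Tnfsf4, 5 of Tnfsf18 and 16 of Cdh1 in any library.

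In the IL-2 and STAT5 list, 4 of 10 genes were called higher, against 9.04% of all genes tested, with a median log2 fold change of 1.12. The largest change was that of Il2rb, the shared chain of the IL-2 and IL-15 receptors (2.11, adjusted p = 0.0147, edgeR), and the smallest that of the kinase gene Jak3 (-0.18, adjusted p = 0.591, and 0.081 with total counts as the scale). The others called were Il15, Il2rg and Stat5a. Among genes of cofactors of Foxp3, 8 of 12 were called higher (median 1.33), against the same 9.04%. Their log2 fold changes ran from Ikzf1, a zinc finger factor of all lymphocytes (2.52, adjusted p = 0.0110, edgeR), to Foxo1, which was at -0.63 and not called (adjusted p = 0.0755). Without WT replicate 3, where 0.239% of all genes were called higher, the calls were 0 in both of these lists in edgeR. There, 7 and 9 genes of the lists were higher at an unadjusted p under 0.05, which 3797 of 15085 genes reached in either direction. In the same order, the calls of the lists numbered 1 and 2 when WT replicate 2 was left out (2.63% of all genes), and 3 in each list when sST2-KO replicate 3 was (4.59%). The IL-2 and STAT5 count was 2 without sST2-KO replicate 1 or sST2-KO replicate 2, where 9.38% and 6.96% of all genes were called higher.

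Of 24 other genes of regulatory T cells, 19 were tested, and the median log2 fold change was 0.85. Of these, 6 were called higher and 1 lower, against 9.04% and 7.10% of all genes tested. The list also holds genes at high levels in WT BAT, such as Pparg (mean 298 CPM) and Nrp1 (180 CPM), against 1.49 CPM for Cd4. What part of these rows came from regulatory T cells was not tested. The largest rise was that of Tnfrsf9, the costimulatory receptor 4-1BB, from 1.51 to 2.84 CPM in WT to 15.2 to 34.1 CPM in sST2-KO libraries (log2 fold change 3.63, adjusted p = 0.00928, edgeR). The other genes called higher were Tigit, Batf, Prdm1, Gata3 and Il1rl1, which is itself the targeted gene. Irf4, a transcription factor also induced in brown adipocytes by cold, was the 1 gene called lower (-3.14, adjusted p = 0.0398, edgeR), with 147, 225 and 1418 CPM in WT and 53.2, 78.6 and 72.0 CPM in sST2-KO libraries. WT replicate 3 held most of that level, and without it the log2 fold change was -1.46 (adjusted p = 0.0630, edgeR). The call was also lost without WT replicate 2 (adjusted p = 0.0564, edgeR) or sST2-KO replicate 1, 2 or 3 (0.0943, 0.0860 and 0.0934), and it held only without WT replicate 1 (0.0323). The 5 remaining genes of the list, among them the chemokine receptor genes Ccr4 and Ccr8, which were picked after their values were seen, were too low to test, with at most 3 counts of either in any library. The count of genes of this list called higher was 1 without WT replicate 3 and 3 without WT replicate 2 or sST2-KO replicate 3, where 0.239%, 2.63% and 4.59% of all genes were called higher. It was 4 without WT replicate 1, with 7.47% of all genes.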

How the data were processed

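BAT RNA of 6 mice was converted to poly-A-selected libraries and sequenced as paired-end reads. The authors checked reads with FastQC 0.12.1 and aligned them with HISAT2 2.2.1 to mm39 (versions from the submitters' processing notes), counted them with htseq-count and deposited raw counts per gene symbol. The version, annotation, mode and strand setting of the counting are not given in the sources used here. Reads of overlapping genes may therefore be shared or lost. Libraries were grouped by sample title, which left 0 sample columns unused. Of the rows, 11377 had no count and 27 had symbols turned into dates, which stayed in the library sizes and are not named.

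Counts were compared in R 4.3.3 with edgeR 4.0.16 (filterByExpr, TMM factors, glmQLFit and glmQLFTest without covariate). The standard error is the log2 fold change divided by the square root of F. The common biological coefficient of variation was 0.325. Steps were tested on simulated data. The members and lists were chosen with earlier results of these data known. The genes named are the members, Il1rl1, the partner list, the largest and smallest change of each other list, the 5 genes most like Foxp3 and genomic neighbors, and others were picked after their values were seen. Tried as alternatives were each library left out, a replicate block, RLE factors or total counts as the scale, DESeq2 1.42.0, no filter, a minimum of 10 counts in each sample, robust estimation and other fold minima. The p-values of edgeR and DESeq2 set the difference between the groups against the spread between mice, with 3 mice per group. That spread was estimated with information from all genes tested. The exact p-values of the CD3 ratios come from relabelling the 6 mice. Between libraries of a group, the chi-square per degree of freedom was 36.7 to 104, far above sampling noise, and all 6 were counted as separate samples. Positions are from GENCODE on GRCm39, which matched all 10 members. Trac, Trbc1 and Trbc2 were not analysed here. Python 3.11.15 and matplotlib 3.10.9 were used for the figures.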

Additional observations from a re-analysis of the deposited data

How the results depend on the processing

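The direction of all 9 members tested was kept under every alternative that tested them, from -0.64 to -0.15 for Foxp3 and from 4.84 to 6.36 for Ctla4 on the log2 scale. Total counts as the scale moved the median log2 fold change of all genes from 0.03 to 0.29, and Jak3 then turned to 0.081. DESeq2 called 7 of 10 IL-2 and STAT5 genes higher, and 11.0% of all genes. With at least 10 counts in every sample, only Foxp3, Ikzf2 and Tnfrsf18 of the members could be tested. Under this minimum, 1 of these 3 and 3 of 14 other regulatory T cell genes were called higher, with 8.05% of all genes. Under a replicate block by number, 0 of all 14542 genes were called in either direction in edgeR (4623 had an unadjusted p under 0.05), and so 0 of each of the 6 lists, where 7 members were higher at an unadjusted p under 0.05. Deviations of same-numbered mice correlated at -0.06, 0.21 and -0.31, without a common sign. These values cannot exclude that the mice were paired, and the sample labels name no pairing. With single libraries left out, 0.239% to 9.38% of all genes were called higher, and calls ranged from 2 to 5 for the members, 1 to 6 for other regulatory T cell genes, 0 to 4 for partners, 0 to 5 for IL-2 and STAT5 genes, 0 to 7 for cofactors and 8 to 12 for T cell genes. Leaving a library out also turned Fcer2a (-0.15 without WT replicate 2, -0.05 without sST2-KO replicate 1, -0.12 without both WT replicate 2 and sST2-KO replicate 3) and Adam17 (range -0.14 to 0.47, -0.04 without sST2-KO replicate 3 and -0.14 without both). Cdh2 was below 0 with any single library left out and turned to 0.14 only without both WT replicate 2 and sST2-KO replicate 3 (range -1.004 to 0.14). Against CD3, Il2ra turned to 0.086 with the whole T cell list, and with a library left out ranged from -0.57 to 0.87 (above 0 without WT replicate 1, sST2-KO replicate 1 or sST2-KO replicate 3). Klrg1 ranged from -1.06 to 0.058, the latter without WT replicate 1. The cause was not tested. Depth limits Areg, Icos, Ctla4, Il2ra and Klrg1 in WT, which had under 10 counts in most WT libraries.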
